A study of Mus musculus with 32 samples.

Results

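Transcripts of potassium channels outside the Kv1 family were followed in mouse hippocampus by age and by inflammasome genotype. The set held probes whose gene symbol begins with Kcn, without Kcna1 to Kcna7 and without Kcne, and with Kcnab kept. A probe counted as detected with a detection p-value under 0.05 on at least 3 arrays. By symbol 101 probes of 67 genes qualified. Of these, 53 probes of 44 genes were detected, among 14745 detected probes of 25697 on the array. The other 48 probes did not meet this rule, and 23 genes had no probe that met it. Of the 53 probes, 39 were detected on all 32 arrays, and the 4 weakest, for Kcnc1, Kcnj14, Kcnip1 and Kcnk5, on 3, 5, 6 and 7 arrays. Just outside the limit lay a further probe of Kcnj14, detected on 2 arrays. The leak channels of the Kcnk family gave 10 probes and the inward rectifiers of the Kcnj family 8, while the Kv4 pores were represented by Kcnd2 alone.

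Potassium channels let potassium leave a cell, so they set the resting potential, end action potentials and limit repetitive firing. Voltage-gated families open on depolarisation, inward rectifiers hold the resting potential, tandem-pore channels carry leak current, and calcium-activated channels follow calcium entry. Subunits such as the Kcnab and Kcnip proteins bind pore-forming subunits and change their gating and surface level, and in hippocampus the A-type current of pyramidal cell dendrites is the best known product of such a partnership.

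RNA of whole hippocampus from C57BL/6J mice on a chow diet was hybridised to Illumina bead arrays. ASC -/- mice, which lack the inflammasome adaptor, gave 6 old and 3 young arrays. CIAS -/- mice, which lack the sensor Nlrp3, gave 6 old and 3 young arrays. CASP11-/- mice were given at the young age only, with 4 arrays. Wild type mice gave 6 old and 4 young arrays. Young mice were 1 month old and old mice 23 months by the sample titles, although another label gives 21 months for 5 of the 6 old ASC -/- arrays. Knockouts were constitutive as far as the labels say, and the labels do not say whether arrays of a group came from separate animals, so p-values measure the spread between arrays, which may be technical. The number of arrays limits the precision.

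Each array detected 13172 to 13900 probes. The probes for Pycard, which encodes ASC, and for Nlrp3 were not above background on any array, so the ASC and CIAS labels could not be checked. For Casp4, the mouse gene of caspase-11, 1 of 3 probes was detected, at a mean log2 signal of 5.45 ± 0.092 on arrays labelled CASP11-/- and 5.45 ± 0.17 on young wild type arrays (SD, n = 4 each). The place of that probe in the gene is not known here, so it checks nothing, and statements on this genotype refer to the arrays as labelled. Old wild type replicate 6 stood apart. Its summed signal of 11 probes of a striatum and thalamus list was 31700, against 1744 to 2453 on the other 31 arrays, and that of 11 hippocampal neuron probes was 4743, against 11300 to 18520. Calls on members that rest on old wild type arrays are therefore given with and without it. So are other differences that it moved by over 1.5 times, except those of marker lists, which were not fitted without it. The Y-linked transcript Eif2s3y, not a sex label, was low on 2 of 4 young and 1 of 6 old wild type arrays, 2 of 3 young ASC -/- arrays and 2 of 4 arrays labelled CASP11-/-, and on 0 old knockout and 0 CIAS -/- arrays. Levels below are log2 signals after background correction and quantile normalization, and levels of different probes are not comparable.

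Few potassium channel probes were called by age, as was so for all probes. In wild type hippocampus 2 of 53 probes were called by limma at adjusted p under 0.05, against 5.25% of all probes (2.77% higher and 2.48% lower). Kcnd2, which encodes the A-type channel Kv4.2 of pyramidal cell dendrites, was higher in old mice, and Kcnu1, known as a channel of sperm, was lower. At an unadjusted p under 0.05 there were 10 members in wild type, against 20.2% of all probes. The median absolute difference was 0.135 for members and 0.102 for all probes, and without replicate 6 it was 0.12 and 0.102. Kcnd2 ranged from 8.15 to 9.15 with a median of 8.80 on 6 old wild type arrays and stood at 8.11, 7.97, 8.21 and 8.01 on the young ones. A single old array, replicate 5, lay within the young range. The difference was 0.67 ± 0.20 (SE, 1.59-fold, adjusted p = 0.0467). Without replicate 6 it was 0.63, with an adjusted p of 0.0646. The call was lost in 21 of 32 fits that left out 1 array, any young wild type array among them, where the highest adjusted p was 0.115.

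Kcnu1 ranged from 6.90 to 7.00 with a median of 6.93 on old wild type arrays and stood at 7.29, 7.03, 7.40 and 7.15 on young ones. The groups did not overlap, which held for 1 of 53 members and 5.97% of all probes. The fall was 0.28 (log2 difference -0.28 ± 0.08 SE, adjusted p = 0.0394), and without replicate 6 the adjusted p was 0.0403. The call was lost without young replicate 1, 3 or 4 or old replicate 2, 3, 4 or 5, where the highest adjusted p was 0.166. With Eif2s3y as a covariate neither gene was called, at 0.67 for Kcnd2 (adjusted p = 0.0666) and -0.27 for Kcnu1 (adjusted p = 0.0597). With replicate 6 left out, 3 members were called in wild type, against 6.73% of all probes. These were Kcnu1, Kcnk1 at -0.30 (adjusted p = 0.00556) and Kcnf1 at -0.37 (adjusted p = 0.046). Kcnk1 encodes the leak channel TWIK-1, and Kcnf1 a voltage-gated subunit that is silent alone.

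In old against young ASC -/- mice 0 of 53 members were called by limma, and 0 under every alternative run, against 0.264% of all probes. At an unadjusted p under 0.05 there were 2 members, against 7.66% of all probes. In old against young CIAS -/- mice 0 of 53 were called, and 0 under every alternative, against 0.692% of all probes. The count at an unadjusted p under 0.05 was 5, against 12.2% of all probes. Old and young arrays of ASC -/- mice did not overlap for 0 of 53 members (4.75% of all probes). In CIAS -/- mice they did not overlap for 2 of 53 (6.91% of all probes). These were Kcnma1, the BK channel pore, which was lower in old mice, and 1 of 2 probes of the Kv4 partner Kcnip1, higher in old mice but above background on only 2 of 6 old and on no young CIAS -/- array. Over the mean of the 3 genotypes 0 of 53 members were called by limma, and 0 to 3 under the alternatives, against 5.52% of all probes. Unadjusted, 7 had a p under 0.05, against 17.8% of all probes. The median difference of the members was 0.006, with a range from -0.22 to 0.20, and the median over all probes was -0.004. Without old wild type replicate 6 Kcnk1 alone was called for the mean, at -0.14 (adjusted p = 0.0309).

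**Figure D1:**
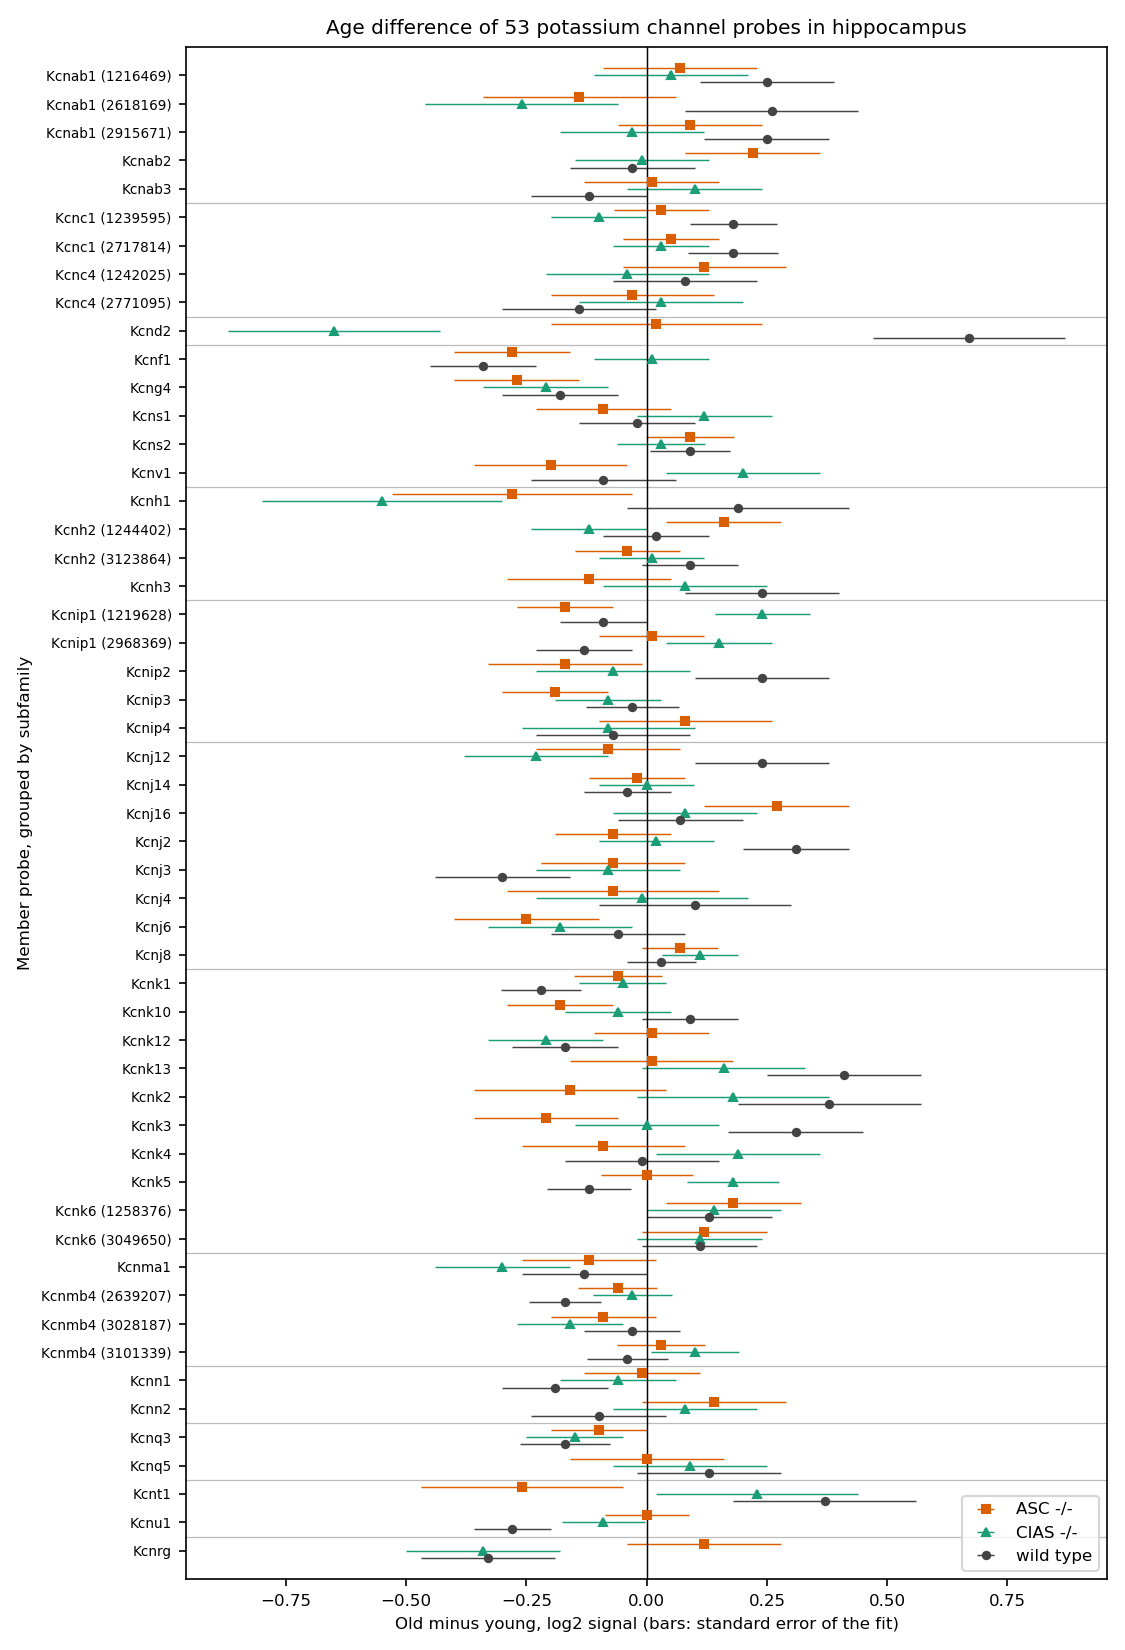
Old minus young log2 signal of each of the 53 probes (x axis) in ASC -/-, CIAS -/- and wild type hippocampus, with bars for the standard error of the fit and lines between subfamilies. Most points lie within 0.3 of 0, and Kcnd2 shows the widest spread between genotypes, with 0.67 in wild type and -0.65 in CIAS -/- mice.

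Kcnd2 was also the member whose age difference differed between genotypes. The CIAS -/- age difference was -0.65 ± 0.22 (SE), which did not pass adjustment (adjusted p = 0.194), and that of ASC -/- mice was 0.02 ± 0.22. On CIAS -/- arrays Kcnd2 ranged from 6.91 to 8.34 with a median of 7.86 in old mice and stood at 8.58, 8.24 and 8.43 in young mice. These young arrays lay above all young wild type arrays, with a difference of 0.34 that was not called. Such a gap held for 8 of 53 members and 9.81% of all probes. The higher young level enters the contrast of age differences below. The age difference of CIAS -/- minus that of wild type was -1.32 ± 0.30 (SE, adjusted p = 0.0398, limma), the single member called of 53, against 0.359% of all probes (0.244% lower). Without replicate 6 it was -1.28 (adjusted p = 0.0357). The call was lost in 16 of 32 fits that left out 1 array, where the highest adjusted p was 0.136. It was also lost in 5 of 12 alternatives, with an adjusted p of up to 0.113. Its old wild type arrays are those of the wild type age call and of the old knockout comparisons, so these results are not independent. For ASC -/- minus wild type the same difference was -0.65 ± 0.30 (adjusted p = 0.469). In that comparison 0 of 53 members were called by limma and 0 under every alternative, against 0% of all probes. At an unadjusted p under 0.05 there were 6, against 10.1% of all probes. With Eif2s3y as a covariate the CIAS -/- difference was -1.32 but not called (adjusted p = 0.057).

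Genotypes were next compared among aged mice. In old CIAS -/- against old wild type 6 of 53 were called, or 11.3%, against 7.92% of all probes (4.8% lower and 3.12% higher). Kcnd2, Kcnh1, Kcnj12 and Kcnma1 were lower, and Kcnk5 and 1 of 3 Kcnmb4 probes higher. Kcnk5 was above background on no old wild type array, and without it the count was 5 of 52, or 9.62%. In old ASC -/- against old wild type 2 of 53 were called, Kcnd2 and Kcnj12, both lower, against 3.82% of all probes (2.08% lower). The 2 comparisons share the old wild type arrays. For each of the members called lower in old CIAS -/- mice, the 250 bases before the annotated gene start are shown, from RefSeq on GRCm38.p6. The genes were picked by these calls.
Kcnd2, chr6:21215096-21215345, + strand: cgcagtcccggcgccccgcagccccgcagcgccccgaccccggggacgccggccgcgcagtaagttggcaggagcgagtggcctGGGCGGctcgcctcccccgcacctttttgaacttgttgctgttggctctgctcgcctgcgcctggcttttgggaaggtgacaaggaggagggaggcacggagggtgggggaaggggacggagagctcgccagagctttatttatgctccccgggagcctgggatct
Kcnh1, chr1:192190527-192190776, + strand: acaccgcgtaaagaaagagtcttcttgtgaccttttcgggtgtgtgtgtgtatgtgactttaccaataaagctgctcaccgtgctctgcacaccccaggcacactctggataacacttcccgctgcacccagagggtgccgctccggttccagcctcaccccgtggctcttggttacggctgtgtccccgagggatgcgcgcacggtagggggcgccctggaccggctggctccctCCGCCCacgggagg
Kcnj12, chr11:61065554-61065803, + strand: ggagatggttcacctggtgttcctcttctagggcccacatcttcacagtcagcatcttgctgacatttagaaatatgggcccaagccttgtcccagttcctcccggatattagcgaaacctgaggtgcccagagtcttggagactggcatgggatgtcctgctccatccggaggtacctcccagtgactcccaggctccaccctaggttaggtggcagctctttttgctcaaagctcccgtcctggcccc
Kcnma1, chr14:24004206-24004455, - strand: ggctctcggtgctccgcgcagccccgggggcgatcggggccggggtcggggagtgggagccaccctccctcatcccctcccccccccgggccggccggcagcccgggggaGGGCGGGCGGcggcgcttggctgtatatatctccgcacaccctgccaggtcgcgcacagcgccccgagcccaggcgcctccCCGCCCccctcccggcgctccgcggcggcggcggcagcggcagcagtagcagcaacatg
Capitals mark GGGCGG, the GC box, on either strand. It occurred 1 time for Kcnd2, 1 time for Kcnh1, 0 times for Kcnj12 and 3 times for Kcnma1, where 2 matches overlap. Of 32851 windows of this length in the table, 32.7% hold it, and of the 52 windows of member genes 23 do, or 44.2%. TGACGTCA, CACGTG and TATAAA, the cAMP response element, E-box and TATA box, occurred in none of the 4 windows, and 1.55%, 6.02% and 12.4% of all windows hold them. Of the 44 member genes 33 had an entry. These matches describe letters and not binding.

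Kcnd2 had the widest difference. It ranged from 6.91 to 8.34 (median 7.86) in old CIAS -/- mice and from 7.63 to 8.35 (median 8.08) in old ASC -/- mice, against 8.15 to 9.15 (median 8.80) in old wild type mice. The lowest wild type array, replicate 5, lay within both knockout ranges. The differences were -0.98 ± 0.18 for CIAS -/- (SE, 1.97-fold lower, adjusted p = 0.000913) and -0.70 ± 0.18 for ASC -/- (adjusted p = 0.0279). Without replicate 6 they were -0.94 (adjusted p = 0.00198) and -0.67 (adjusted p = 0.0425). The ASC -/- call was lost without wild type replicate 1 or ASC -/- replicate 1 or 5, where the highest adjusted p was 0.0741. The CIAS -/- call was kept under all 12 alternatives and all 32 fits without 1 array.

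Kcnh1 encodes the ether-à-go-go channel. It ranged from 7.04 to 8.83 (median 8.21) in old CIAS -/- mice and from 8.12 to 9.05 (median 8.47) in old ASC -/- mice, against 8.70 to 9.26 (median 8.83) in old wild type mice. A single old CIAS -/- array, replicate 5, reached the wild type range. The CIAS -/- difference was -0.79 ± 0.20 (SE, 1.73-fold lower, adjusted p = 0.0141, and 0.0304 without replicate 6). That call was lost in 1 of 12 alternatives (highest adjusted p 0.0809) and kept in all 32 fits without 1 array. The ASC -/- difference of -0.37 had an adjusted p of 0.283.

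Kcnj12 encodes the strong inward rectifier Kir2.2. It ranged from 4.78 to 5.20 (median 5.05) in old CIAS -/- mice and from 4.87 to 5.61 (median 5.15) in old ASC -/- mice, against 5.22 to 6.05 (median 5.68) in old wild type mice. Old CIAS -/- and old wild type arrays did not overlap. Such a gap held for 2 of 53 members, the other being 1 Kcnc4 probe, which was higher in CIAS -/-, and for 2.96% of all probes. The probe is dim, detected on 3 of 6 old CIAS -/-, 3 of 6 old ASC -/- and 6 of 6 old wild type arrays. The differences were -0.60 ± 0.13 for CIAS -/- (SE, adjusted p = 0.00324) and -0.45 ± 0.13 for ASC -/- (adjusted p = 0.0415). The size depends on the background correction, from -0.93 with the deposited values to -0.33 with an offset of 50 for CIAS -/-, and from -0.67 to -0.25 for ASC -/-, whose call was lost in 3 of 11 alternatives. Without replicate 6 they were -0.52 (adjusted p = 0.0083) and -0.37, no longer called (adjusted p = 0.0794). The ASC -/- call was also lost without wild type replicate 1, 2 or 3 or ASC -/- replicate 1, 2 or 5, where the highest adjusted p was 0.111.

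Kcnma1 and Kcnmb4 encode the pore and the neuronal beta subunit of the BK channel, which opens on calcium and voltage. Kcnma1 ranged from 8.81 to 9.61 (median 9.46) in old CIAS -/- mice and from 9.17 to 9.74 (median 9.61) in old ASC -/- mice, against 9.31 to 10.05 (median 9.85) in old wild type mice. The lowest wild type array was replicate 6. The CIAS -/- difference was -0.43 ± 0.12 (SE, adjusted p = 0.022). The ASC -/- difference was -0.27 ± 0.12 (adjusted p = 0.178). Without replicate 6 both were called, at -0.53 (adjusted p = 0.00258) and -0.37 (adjusted p = 0.049), and neither knockout overlapped the 5 remaining wild type arrays. Such gaps held for 4 of 53 members in CIAS -/- and 3 of 53 in ASC -/-, against 4.81% and 3.7% of all probes. The CIAS -/- call with all arrays was lost without wild type replicate 2 or 3 or CIAS -/- replicate 6, where the highest adjusted p was 0.0814.

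The 3 Kcnmb4 probes disagreed. The probe that was called ranged from 9.13 to 9.49 (median 9.32) in old CIAS -/- mice, against 8.99 to 9.20 (median 9.10) in old wild type mice. Its difference was 0.22 ± 0.067 (SE, adjusted p = 0.0419), with an adjusted p of 0.0762 without replicate 6. The call was lost in 8 of 32 fits without 1 array, those without wild type replicate 1, 3, 5 or 6 or CIAS -/- replicate 1, 2, 3 or 6, with an adjusted p of up to 0.127. It was also lost in 5 of 12 alternatives, with an adjusted p of up to 0.15. The other probes had differences of 0.14 (adjusted p = 0.249) and -0.08 (adjusted p = 0.644). The correlation between Kcnmb4 probes over the 32 arrays, group differences included, ran from -0.0836 to 0.412.

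Kcnk5 encodes the tandem-pore channel TASK-2, a leak channel sensitive to alkaline pH. It ranged from 4.87 to 5.16 (median 5.02) in old CIAS -/- mice, against 4.58 to 4.90 (median 4.77) in old wild type mice. It was above background on 4 of 6 old CIAS -/- arrays and on 0 of 6 old wild type arrays, so the wild type level is only a bound. Its 7 detections lay on 4 old CIAS -/- arrays and 3 arrays labelled CASP11-/-, so the detection rule admitted it through groups where it was high. The values are given as a description, with measured means of 5.03 in CIAS -/- and 4.74 in wild type. Against the lowest detected signal of each wild type array Kcnk5 was at least 1.01-fold higher in CIAS -/-. In old ASC -/- mice the 1 member whose arrays did not overlap those of old wild type was Kcnu1, at 7.03 to 7.40 against 6.90 to 7.00, and 2.07% of all probes showed such a gap.

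**Figure D2:**
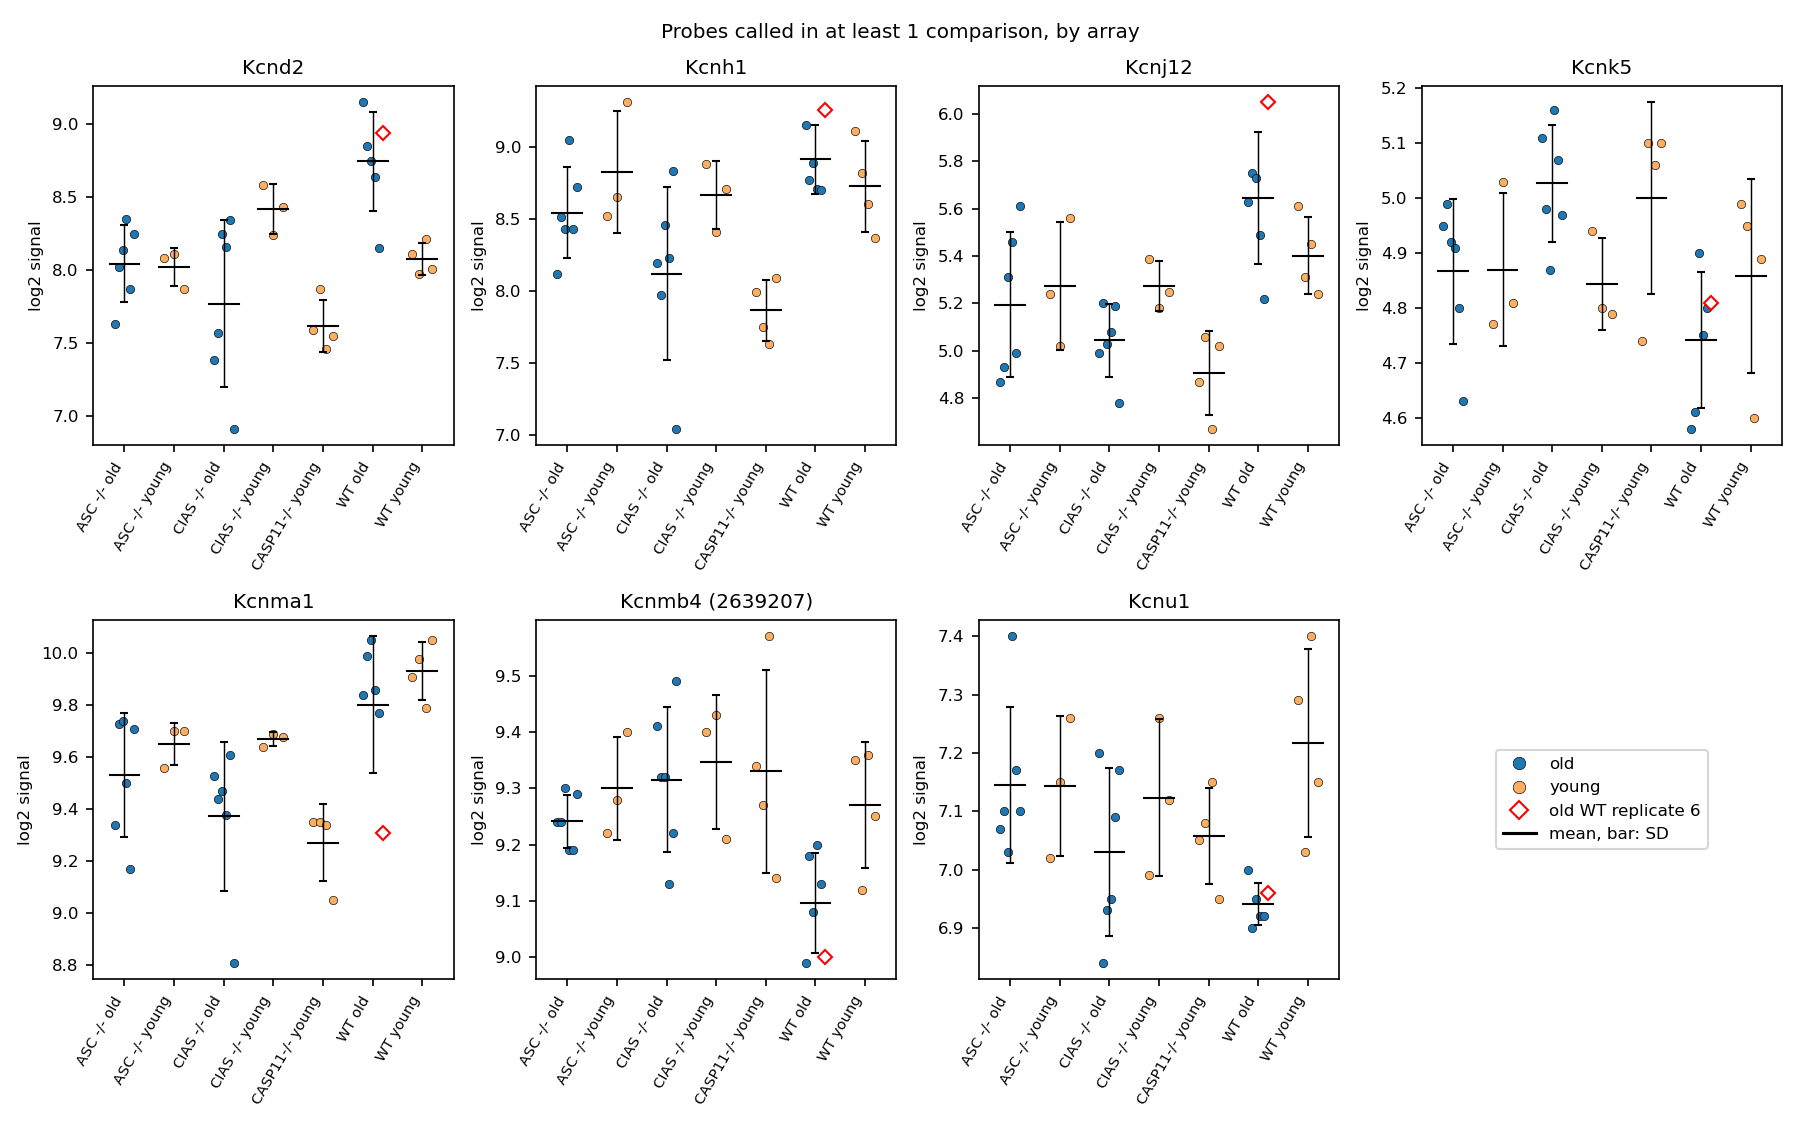
Log2 signal (y axis) of the 7 probes called in at least 1 comparison, 1 point per array, for the 7 groups, with lines at the mean and bars for the SD. Kcnj12 in old CIAS -/- mice, at 4.78 to 5.20, lies below all old wild type arrays, and old wild type replicate 6 is drawn as an open diamond.

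Leaving out replicate 6 kept the number called in old CIAS -/- at 6, against 8.11% of all probes, with Kcng4 in place of Kcnmb4. In old ASC -/- the number became 5, against 4.03% of all probes. These were Kcnd2, Kcng4 at -0.34 (adjusted p = 0.028), Kcnk10 at -0.32 (adjusted p = 0.0355) and Kcnma1, all lower, and Kcnk1 at 0.21 (adjusted p = 0.046), which was higher. Kcng4 is a silent subunit that modifies Kv2 channels, and Kcnk10 encodes the leak channel TREK-2. Old CIAS -/- replicate 6 was the lowest old CIAS -/- array for Kcnd2, Kcnh1, Kcnj12 and Kcnma1. Without that array the Kcnma1 call in CIAS -/- was lost, and those of Kcnd2, Kcnh1 and Kcnj12 were kept.

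**Figure D3:**
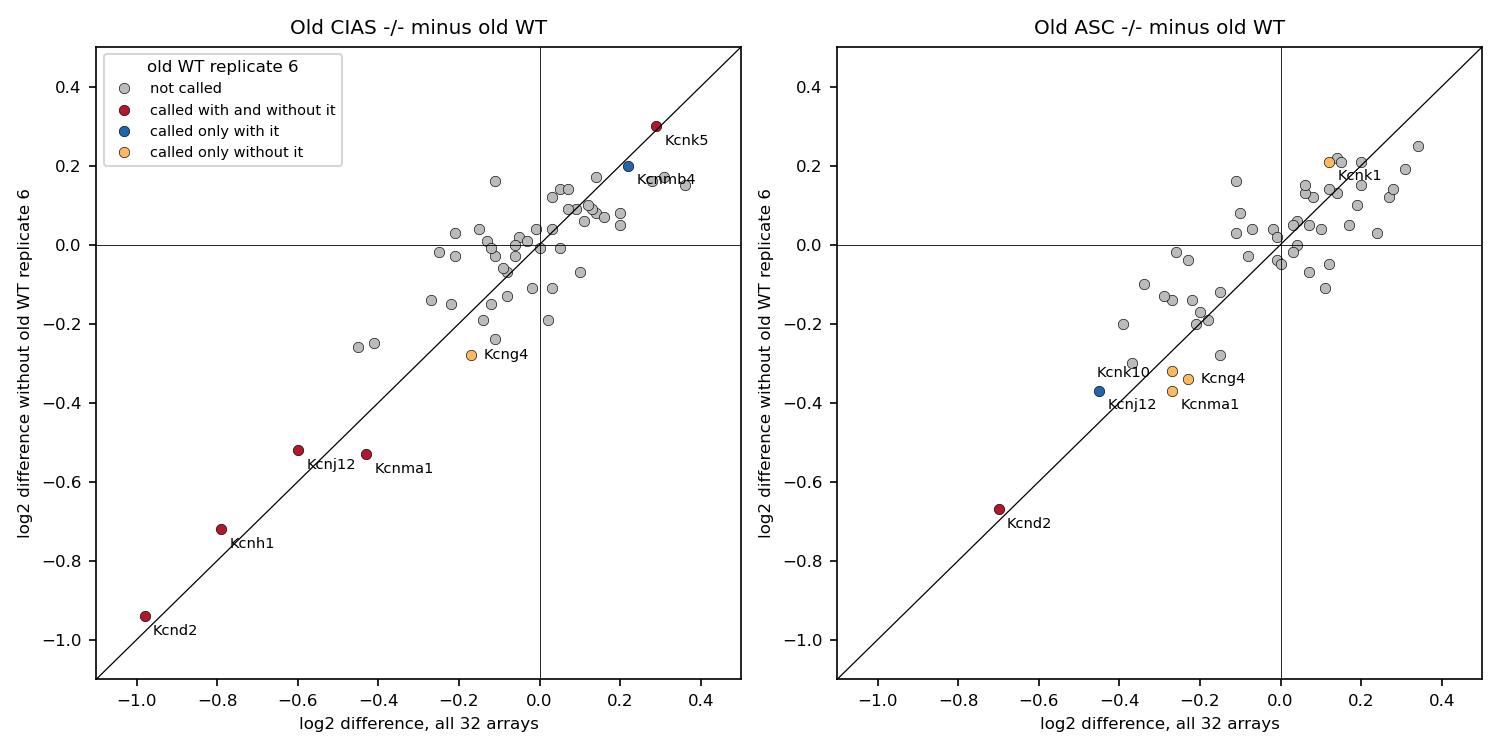
Log2 difference of each of the 53 probes between old knockout and old wild type mice with all arrays (x axis) and without old wild type replicate 6 (y axis), for CIAS -/- at the left and ASC -/- at the right. Points on the line are unchanged by that array, and Kcnd2 is lowest in both panels, at -0.98 and -0.70.

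Cell type markers moved in the same comparisons. Marker probes were not fitted without replicate 6. Of 13 oligodendrocyte probes 7 were called lower in old CIAS -/- mice and 4 in old ASC -/- mice, against 4.8% and 2.08% of all probes. In each comparison 12 of the 13 had a difference below 0, with medians of -0.443 and -0.332. Their summed signals were 12990 to 20150 and 15430 to 18740, against 17000 to 32890 in old wild type mice, where the highest was replicate 6. The median sums were 16740 and 17100, against 20560. Of 7 microglia probes 4 were called lower in old CIAS -/- and 3 in old ASC -/- mice, and in each 5 were below 0 and 2 above. The microglia sums were 1092 to 1402 and 1319 to 1488, against 1585 to 1915 in old wild type mice. Of 10 astrocyte probes Aqp4 and Gfap were called lower in old CIAS -/- mice and none was called in old ASC -/- mice, while 7 and 6 were below 0. Of 11 hippocampal neuron probes 1 Prox1 probe was called lower in both knockouts and Neurod6 called higher in ASC -/-. The neuron sums were 13110 to 18520 in old CIAS -/-, 13800 to 14830 in old ASC -/- and 4743 to 15490 in old wild type mice. Of the 11 striatum and thalamus probes none was called, while 10 had a difference below 0 in each comparison. The medians were -0.583 in CIAS -/- and -0.553 in ASC -/-. Replicate 6 had 31700 in that sum, while the median sum was 1932 in old wild type mice and 1988 in each old knockout. The median sums thus show no fall in the knockouts. Of 8 endothelial and pericyte probes Rgs5 was called lower in CIAS -/-, and the interneuron, cortex, oligodendrocyte precursor and choroid plexus lists gave no call in either comparison. All 7 oligodendrocyte genes and 6 microglia genes with a probe were detected. Their part in the channel results was not tested, and in whole tissue fewer cells of a type and less RNA per cell cannot be told apart.

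Among young mice the arrays labelled CASP11-/- differed from wild type at 1 of 53 members, against 2.63% of all probes (1.86% lower). Kcnma1 stood at 9.35, 9.35, 9.34 and 9.05 on arrays labelled CASP11-/-, against 9.91, 9.98, 9.79 and 10.05 on young wild type arrays. The groups did not overlap. The difference was -0.66 ± 0.14 (SE, 1.58-fold lower, adjusted p = 0.00911), and the call was kept under all 12 alternatives and all 32 fits without 1 array. Low Kcnma1 was not particular to these arrays. Young ASC -/- arrays, at 9.56 to 9.70, and young CIAS -/- arrays, at 9.64 to 9.69, were also below all young wild type arrays, without a call. On arrays labelled CASP11-/-, Kcnd2, Kcnh1, Kcnip3, Kcnj12 and Kcnrg were likewise below all young wild type arrays, and Kcnip4 and Kcnk4 above them. With Kcnma1 this made 8 of 53 members, or 15.1%, against 13.3% of all probes.

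Kcnh1 stood at 7.99, 7.75, 7.63 and 8.09 on arrays labelled CASP11-/-, against 9.11, 8.82, 8.60 and 8.37 on young wild type arrays. Its difference of -0.86 ± 0.25 (SE) had an adjusted p of 0.0552. Kcnj12 was not above background on any array labelled CASP11-/- and detected on all 4 young wild type arrays, with measured means of 4.90 and 5.40. It was at least 1.29-fold lower on the labelled CASP11-/- arrays (adjusted p = 0.0818 in the fit). Without old wild type replicate 6, which belongs to neither group but shares the normalization and the variance, Kcnh1, Kcnj12 and Kcnrg were called as well, with adjusted p of 0.0416, 0.0466 and 0.0273, against 4.13% of all probes. The oligodendrocyte sums were 25010 to 26110 on arrays labelled CASP11-/-, against 16470 to 22680 on young wild type arrays, with Cnp called higher. The microglia sums were 1081 to 1112, against 1248 to 1384, with Cx3cr1 called lower at -1.07. The remaining 6 of 7 microglia probes had a difference above 0, and the median of the list was 0.083. The cortex sums were 1249 to 1289, against 1373 to 1603, with 6 of 6 probes below 0 (median -0.294) and 2 Rorb probes called lower. The part of these lists in the channel results was not tested.

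Young ASC -/- against young wild type mice gave 0 of 53 members called by limma and 0 under every alternative, against 0.00678% of all probes. At an unadjusted p under 0.05 there were 0, against 4.5% of all probes. Young CIAS -/- against young wild type mice gave 0 of 53 by limma and 0 under every alternative, against 0% of all probes. At an unadjusted p under 0.05 there was 1, against 7.81% of all probes. The 1 was a probe of Kcnip1, at 6.45, 6.68 and 6.37 on young CIAS -/- arrays and 6.93, 6.74, 7.04 and 6.85 on young wild type arrays. The groups did not overlap, as for 8 of 53 members and 9.81% of all probes, and the difference was -0.39 ± 0.11 (SE, adjusted p = 0.229).

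The subfamilies are given next by their age differences. Among voltage-gated pores, Kcnd2 is described above, and Kcnh1 was at -0.21 ± 0.14 (SE, adjusted p = 0.451) for the mean and at -0.55 in CIAS -/- mice (adjusted p = 0.367). For the mean over 3 genotypes Kcng4 was at -0.22 ± 0.072 (SE, adjusted p = 0.0744) and Kcnf1 at -0.20 ± 0.068 (adjusted p = 0.0784). Kcng4 ranged from 5.53 to 6.00 (median 5.84) in old ASC -/- mice and stood at 6.14, 6.19 and 5.87 in young ASC -/- mice. In CIAS -/- mice it ranged from 5.66 to 6.01 (median 5.88) when old and stood at 6.06, 6.17 and 5.98 when young. Old and young arrays overlapped by a single young array in each knockout. In wild type mice Kcng4 ranged from 5.48 to 6.41 (median 6.08) when old and stood at 6.10, 6.02, 6.30 and 6.42 when young, and the lowest old array was replicate 6. Kcnf1 ranged from 9.45 to 9.78 (median 9.67) in old wild type mice and stood at 10.32, 10.04, 9.94 and 9.65 in young ones, so that 1 young array lay within the old range. Its age difference was -0.34 in wild type (adjusted p = 0.0654), -0.28 in ASC -/- (adjusted p = 0.578) and 0.01 in CIAS -/- mice (adjusted p = 0.984). Kcnq3, a subunit of the M-current that damps repetitive firing, was at -0.14 ± 0.057 (adjusted p = 0.181), and Kcnq5 of the same family at 0.07, or 0.04 without replicate 6. The Kv3 channels of fast-spiking cells stood near 0, with Kcnc1 at 0.09 and 0.03 for its 2 probes. Kcnh3, an ether-à-go-go-like channel of forebrain, was at 0.07, or 0.02 without replicate 6.

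The cytoplasmic partners gave no call in any comparison. The 3 probes of Kcnab1, a beta subunit that speeds inactivation, had mean age differences of 0.12, 0.10 and -0.05, which without replicate 6 were 0.06, 0.04 and -0.11. Kcnip3 was at -0.10, and Kcnip4 at -0.02, or 0.05 without replicate 6. Among inward rectifiers Kcnj3 and Kcnj6, subunits of the G protein-gated channel, were at -0.15 and -0.16, and without replicate 6 at -0.10 and -0.12. Among leak channels Kcnk13, the THIK-1 channel of microglia, was at 0.20 and Kcnk1 at -0.11. In wild type mice Kcnk13 ranged from 8.11 to 9.28 (median 8.40) when old, with replicate 6 the highest, and stood at 7.84, 8.09, 8.15 and 8.21 when young, and its difference was 0.41 ± 0.16 (SE, adjusted p = 0.128). Without replicate 6 it was 0.25 (adjusted p = 0.234). The small-conductance calcium-activated channels Kcnn1 and Kcnn2 were at -0.09 and 0.04, and without replicate 6 at -0.04 and 0.08. The sodium-activated channel Kcnt1 was at 0.12, or 0.04 without replicate 6. None of these passed adjustment with all arrays.

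Old wild type replicate 6 lay outside the range of the other 5 old wild type arrays for 42 of 53 members, or 79.2%, against 58.7% of all probes. It differed by over 1 log2 unit from their average for 8 members, or 15.1%, against 4.7% of all probes. Kcnj4, an inward rectifier known from striatum and cortex, was 1.64 higher, Kcnt1 1.41, Kcnk2 1.40 and the 3 Kcnab1 probes 1.07, 1.15 and 1.18. Kcnip4, a Kv4 partner, was at -1.27 and 1 Kcnc4 probe at -1.25. Kcnd2 and Kcnu1 lay within the range of the other arrays.

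**Figure D4:**
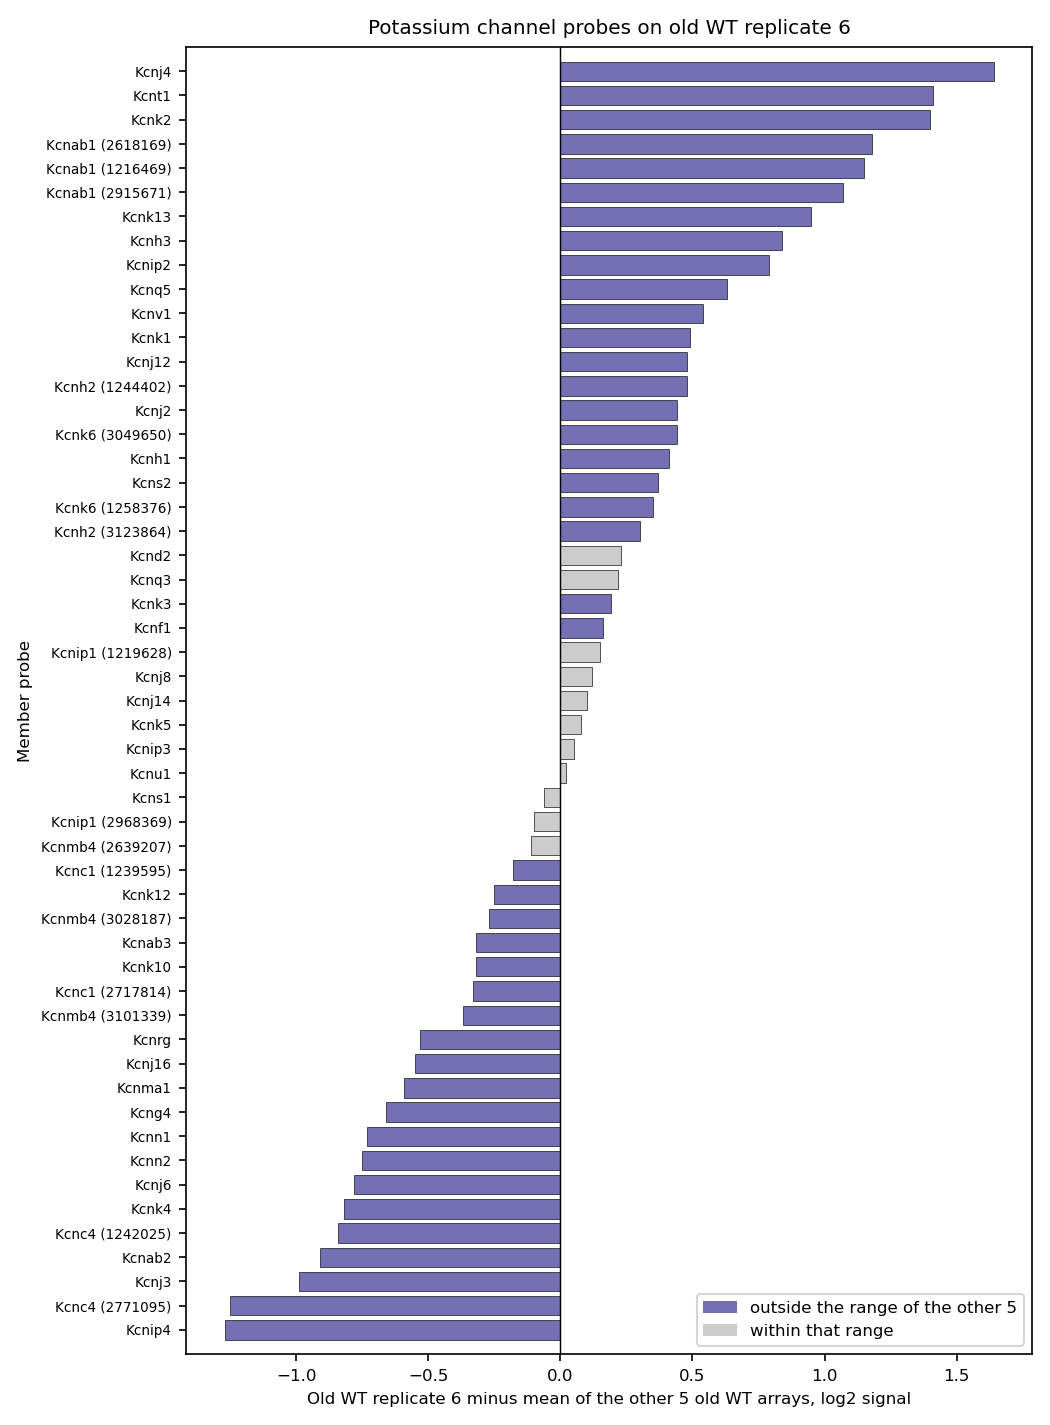
Difference in log2 signal (x axis) between old wild type replicate 6 and the average of the remaining 5 arrays of that group, 1 bar per member probe, coloured by whether it lies outside their range. Bars reach 1.64 for Kcnj4 and -1.27 for Kcnip4.

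Other genes of potassium transport were taken from a list of 42 genes, with 32 probes of 27 genes detected. Kcne4, which encodes an accessory subunit that inhibits some voltage-gated channels, was the 1 probe called for the mean age difference. It was above background on 3 of 6 old wild type, 1 of 6 old CIAS -/- and 2 of 4 arrays labelled CASP11-/-. No old ASC -/- array and no young wild type, ASC -/- or CIAS -/- array detected it. The detection rule thus admitted Kcne4 through groups where it was high, so the call is given as a description without a size. In old CIAS -/- against old wild type 5 of 32 probes were called, against 7.92% of all probes, and in old ASC -/- 4 of 32, against 3.82%. Among them Kcna1 and Slc12a5 were chosen after their values were seen. Kcna1, a Kv1 pore, was at -2.10 in CIAS -/- (adjusted p = 9.87e-07) and -1.12 in ASC -/- (adjusted p = 0.00446), and at -2.18 and -1.19 without replicate 6. Slc12a5, the neuronal chloride and potassium exporter, was 0.35 higher in each (adjusted p = 0.0202 and 0.0362), and 0.41 and 0.40 higher without replicate 6. Kcna1 was at -2.21 on young arrays labelled CASP11-/- (adjusted p = 5.21e-06).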

How the data were processed

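The authors deposited probe intensity on a linear scale with a detection p-value for each probe and array, per the file headers, and a table of normalized intensity made by an unstated method. The submitters' processing notes name GenomeStudio. The deposited normalized values, of which 24.4% were below 0, served only as an alternative.

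In R 4.3.3 with limma 3.58.1, the signals went through neqc, which corrected the background from negative controls estimated with the detection p-values. An offset of 16 was added before quantile normalization and log2. The 14745 detected probes were fitted singly with 7 group means over 32 arrays, for 11 comparisons, and the residual degrees of freedom were 25, with 4.383 from the prior. Tests were 2-sided, adjusted by Benjamini-Hochberg over all detected probes and called under 0.05. Fits were tested on simulated data.

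Symbols came from GEO's platform annotation, where 23978 probes carried 1 symbol, 1719 none and 0 several. The gene table of GRCm38.p6 matched 23962 by gene number and changed 0. Named genes were the called members, the 2 of each subfamily with the smallest p for the mean age difference, and those of the other transport list called for the mean age difference. Members and lists were chosen with earlier results of these data known. Genes singled out by range, by a single array or on leaving out replicate 6, and genes named beyond that rule, were chosen after their values were seen. Alternatives covered background correction, offset, deposited values, filters, an Eif2s3y covariate, replicate block, array weights, variance, 1 probe per gene, a 1.2-fold minimum and fits of only the groups compared. Chips, scan times and probe positions were not given in the sources used here.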

Additional observations from a re-analysis of the deposited data

Results flagged for a closer look

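Of 145 sets of values, each a named probe in a group of 4 or 6 arrays, 21 had an array far from the rest, or 14.5%. Chance gives about 1 in 20 for independent sets, but these sets share arrays, so that rate is not a fair comparison. The share quoted below for each flagged set is the gap to the nearest array over the whole range of the group. Old wild type replicate 6 gave 11 of the 21 flagged sets. It was highest for 2 Kcnab1 probes (0.771 and 0.858), Kcnk1 (0.647), Kcnk13 (0.69) and Kcnt1 (0.787). It was lowest for Kcnip4 (0.767), Kcnj3 (0.676), Kcnn1 (0.784), Kcnn2 (0.811), Kcnrg (0.648) and 1 Kcnmb4 probe (0.675).

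Among arrays labelled CASP11-/-, replicate 4 was lowest for Kcnma1 (0.98) and replicate 1 for Kcnk5 (0.891) and Kcnn1 (0.855). In old CIAS -/- mice replicate 6 was lowest for Kcnma1 (0.717) and replicate 1 highest for Kcnc1 (0.652). In old ASC -/- mice replicate 4 was highest for Kcnu1 (0.64) and Kcnn2 (0.673), and replicate 5 lowest for Kcnf1 (0.656). In young wild type mice replicate 1 was highest for Kcnh3 (0.86) and replicate 2 lowest for Kcnrg (0.944).

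The age difference of Kcnd2 differed between CIAS -/- and wild type mice by -1.32 in the test of the difference itself (limma, adjusted p = 0.0398).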

How the results depend on the processing

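Across 12 alternatives and 32 fits without 1 array, Kcnd2 and Kcnj12 in old CIAS -/- and Kcnma1 on arrays labelled CASP11-/- kept their calls wherever the probe was tested. With 1 array left out, the members called ranged from 0 to 3 for age in wild type, 0 to 1 for the mean age difference, 0 to 1 for CIAS -/- minus wild type age difference, 1 to 4 for CASP11-/-, 0 to 5 for old ASC -/- and 4 to 7 for old CIAS -/-. Counts over all probes moved as well. Without old wild type replicate 6 the members called were 3, 1, 1, 4, 5 and 6 in that order, with 992, 1113, 179, 609, 594 and 1196 of all probes. Members with no overlap by age ranged from 1 to 4 in wild type, 0 to 5 in ASC -/- and 2 to 7 in CIAS -/-, while at the highest member counts 1283, 1449 and 1806 of all 14745 probes did not overlap, against 881, 701 and 1019 with all arrays. Fits of only the groups compared called 0 for age in wild type, 0 for the CIAS -/- age difference against wild type, 6 for CASP11-/-, 0 for old ASC -/- and 3 for old CIAS -/-, where the counts over all probes were 270, 23, 859, 71 and 508, against 774, 53, 388, 563 and 1168 in the fit of all groups. The Eif2s3y covariate called 0, 0 and 1 for wild type age, CIAS -/- age difference and old ASC -/-, with 583, 40 and 436 of all probes. Array weights called 3, 4 and 5 for mean age, CASP11-/- and old ASC -/-, with 1639, 908 and 827 of all probes. With the replicate block the counts were 0 for wild type age, 0 for the CIAS -/- age difference and 2 for CASP11-/-, with 664, 50 and 374 of all probes. Whether replicate numbers pair the arrays is not known here. Deviations correlated between -0.248 and 0.365 (median 0.000569) over 79 same-numbered pairs from different groups. Over 354 pairs with other numbers they correlated between -0.376 and 0.415 (median 0.00522). Such correlations cannot exclude a batch shared by arrays of 1 number. The deposited values called 1, 0 and 2 for wild type age, CIAS -/- age difference and CASP11-/-, with 751, 42 and 367 of all probes. They gave 1 CIAS -/- member with no overlap by age, with 960 of all probes. Without a filter the counts were 1, 0 and 0 for wild type age, CIAS -/- age difference and old ASC -/-, with 626, 30 and 359 of all probes tested. The strict filter called 1 for old ASC -/- (501 of all probes tested) and trended variance 1 for wild type age (787). Quantile normalization alone called 2 for CASP11-/- (423 of all probes). Kcnd2 in wild type age lost its call in 6 alternatives and 21 fits without 1 array. The mean age difference of Kcnip4 (-0.02) became 0.03 with the covariate, 0.08 with the block, 0.08 with weights and 0.05 or 0.01 without 1 array, that of Kcnd2 (0.01) became -0.01 or -0.02 without 1 array, and that of 1 Kcnc1 probe became 0 with the block. The cause of these changes was not tested. The ranges without 1 array were -0.05 to 0.05 for Kcnip4 and -0.02 to 0.07 for Kcnd2. Dim probes such as Kcnk5 and Kcnj12 are limited by signal over background.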
